A study of Mus musculus with 11 samples.

Results

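The WAVE regulatory complex is an assembly of 5 subunit positions, and mice have 10 genes that fill them besides Abi3: Cyfip1 and Cyfip2, Nckap1 and Nckap1l, Abi1 and Abi2, Brk1, and Wasf1, Wasf2 and Wasf3. These 10 genes were taken by symbol from the per-animal count tables, where each matched a single Ensembl identifier, and they are 10 of the 17626 genes tested for a genotype difference. Abi3, the gene that was deleted, is the third gene of the ABI position and is given beside them. The rule takes the genes by symbol and uses no measured value.

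Gene counts came from cerebral cortex of 11 female mice aged 8 months, 6 of them Abi3 WT and 5 Abi3 KO, 1 library per animal. The labels give C57BL/6 as the strain of both genotypes, and every animal carried the 5xFAD transgenes, so there was no group without amyloid. The 5xFAD transgenes bear familial Alzheimer's disease mutations and are expressed from the neuronal Thy1 promoter, and the mice deposit amyloid β from an early age. The Abi3 KO allele removes the gene body in every cell from conception, not in microglia alone. The deletion was made on C57BL/6N mice, which were then crossed to a 5xFAD line of B6SJL origin. C57BL/6N mice are known to carry a missense allele of Cyfip2, a member gene on the chromosome of Abi3 (chromosome 11, 49.5 Mb away), and gene counts do not show which Cyfip2 allele an animal had. Nothing in the labels pairs animals of different genotype or names a batch.

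The WAVE complex links the small GTPase Rac1 to branched actin. In the resting complex the CYFIP and NCKAP subunits form a large platform that holds a WASF protein inactive, with the ABI subunit and the small BRK1 subunit bundled along it. When active Rac1 binds CYFIP, the tail of the WASF protein is released, binds the Arp2/3 complex and starts a new actin branch. Neurons use the complex in growth cones and dendritic spines, and microglia use it in their moving processes. ABI3 occupies the place of ABI1 or ABI2 in part of the complexes, and NCKAP1L is the form of NCKAP known from blood cells and microglia.

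The last 60 coding bases of the 3 WASF genes are shown because they encode the end of the tail that binds Arp2/3, the shared output of the paralogues that are compared below. They were read from the GRCm39 genome, 5′ to 3′ on the coding strand, and end with the stop codon. The stretches were aligned by codon, and capitals mark aligned bases that are the same in all 3 genes. Wasf2 has 1 codon more than the others within the alignment, and the first codon shown for Wasf1 and Wasf3 has no partner in the Wasf2 stretch. The stretches are chr10:40813740-40813799 in exon 9 of 9 of Wasf1, chr4:132923126-132923185 in exon 9 of 9 of Wasf2 and chr5:146407128-146407187 in exon 10 of 10 of Wasf3, all on the plus strand.
Wasf1: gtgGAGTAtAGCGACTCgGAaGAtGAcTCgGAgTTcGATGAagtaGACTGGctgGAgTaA
Wasf2: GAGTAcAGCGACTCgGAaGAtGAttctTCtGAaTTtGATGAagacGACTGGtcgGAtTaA
Wasf3: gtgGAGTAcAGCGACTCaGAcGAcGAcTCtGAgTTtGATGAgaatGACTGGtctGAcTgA
Of the 57 aligned bases, 40 (70.2%) were the same in the 3 genes. Over the whole coding sequence, the aligned bases were identical in 77.7% for Cyfip1 and Cyfip2, 69.2% for Abi1 and Abi2, 63.3% for Nckap1 and Nckap1l, and 66.1% to 66.7% for the WASF pairs. Abi3 shared 64.7% with Abi1 and 64.5% with Abi2. Reads can therefore be told apart between paralogues: of the 76-base stretches in the last 500 bases of the annotated coding transcripts, where reads of this 3′ method start, none occurred in another gene for 9 of the 10 genes. For Nckap1 2 of 2129 stretches did, in Gm63180 and Hectd2os, neither of them a WAVE gene. No member overlaps another protein-coding gene on its own strand, and genes on the opposite strand, which all 10 have, were kept apart by the stranded counting. Abi1, Cyfip2, Nckap1, Wasf2 and Brk1 overlap other entries on their own strand that are not protein-coding, which stranded counting does not keep apart.

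The libraries held 3202310 to 5501958 reads in genes, with 4213426 ± 958976 (SD, n = 6) in Abi3 WT and 3457200 ± 301866 (SD, n = 5) in Abi3 KO cortices. Reads aligned outside genes numbered 65.9 ± 3.67 (SD, n = 6) per 100 reads in genes in Abi3 WT and 54.0 ± 4.99 (SD, n = 5) in Abi3 KO cortices, so this measure of library make-up moved with genotype. Normalized counts of Abi3 were 7.24 to 37.7 in the Abi3 WT animals, with a median of 17.3, and were 0, 2.02, 0, 0 and 0 in the Abi3 KO animals, which matched the labels (exact permutation test over every split of the animals into 6 and 5, two-sided, p = 0.00433). Neuronal markers added up to 21145 to 23478 normalized counts in Abi3 WT and 22844 to 25144 in Abi3 KO cortices, and 0 of 10 passed the test. T cell markers Cd3e, Cd3d, Cd8a and Cd2 had 1 to 3 raw reads each over all 11 libraries.

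None of the 10 WAVE genes passed the test for a difference between Abi3 KO and Abi3 WT cortex. The test was DESeq2 on the counts with p-values adjusted over all genes by the Benjamini-Hochberg method and a threshold of 0.05, which 85 of 17626 genes (0.482%) met, 55 of them higher (0.312%) and 30 lower (0.17%) in Abi3 KO. DESeq2 gave an adjusted p to 9 of the 10, from 0.205 for Wasf3 to 0.939 for Abi2. Neither edgeR nor limma called any of the 10. Nckap1l received no adjusted p because its mean count lay under the tool's own threshold of 66.6 normalized counts. The log2 fold changes, Abi3 KO against Abi3 WT, ran from -0.10 for Wasf2 to 0.29 for Wasf3, with a median of 0.19 against -0.0033 over all genes tested and 0.03 over genes that averaged 100 normalized counts or more, a level that 9 of the 10 reached.

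By weaker measures, the subunit genes leaned towards Abi3 KO. The fitted log2 fold change was above 0 for 9 of the 10 genes, against 49.5% of all genes tested and 58.1% of genes with a mean of at least 100. An unadjusted p under 0.05 was found for Wasf3, Cyfip1, Brk1 and Abi1, all with higher means in Abi3 KO, against 8.58% of all genes in either direction, 4.14% in this direction, and 8.56% in this direction among genes with a mean of at least 100. Wasf3 was the only member without overlap between genotypes, which was found for 1.04% of all genes in either direction, 0.539% in this direction, and 1.2% in this direction among those with a mean of at least 100. The 10 genes were measured in the same libraries with the same size factors, so their directions are not separate pieces of evidence. Marker lists of the main cell types in these libraries had the same direction in part. Of 10 neuronal markers 7 had an estimate above 0, with a median log2 fold change of 0.10 and 2 at an unadjusted p under 0.05. All 7 oligodendrocyte markers were above 0, with a median of 0.17 and 2 at that level. Of 15 microglia markers 13 were above 0, with a median of 0.22 and 5 at that level. Of 8 astrocyte markers 2 and of 6 endothelial markers 1 were above 0, with medians of -0.10 and -0.09. The part of these cell types in the values of the WAVE genes was not tested.

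With reads outside genes as a further term in DESeq2, the median log2 fold change of the 10 genes was 0.02 in place of 0.19, 8 of 10 estimates were above 0 in place of 9, and the number of genes past the threshold in the whole table was 3 in place of 85. The estimates near 0 in that fit were those of Abi1, 0.0024 (SE 0.246), Cyfip2, 0.0027 (SE 0.178), Wasf1, 0.0014 (SE 0.218), and Brk1, 0.04 (SE 0.177). Those of Abi2 and Nckap1 were -0.06 (SE 0.131) and -0.06 (SE 0.191). Above 0.2 lay those of Cyfip1, 0.21 (SE 0.224), Wasf2, 0.28 (SE 0.288), Wasf3, 0.30 (SE 0.209), and Nckap1l, 1.68 (SE 0.655). The standard errors were wider in that fit because the covariate and the genotype moved together, and their parts in these values cannot be told apart.

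**Figure D1:**
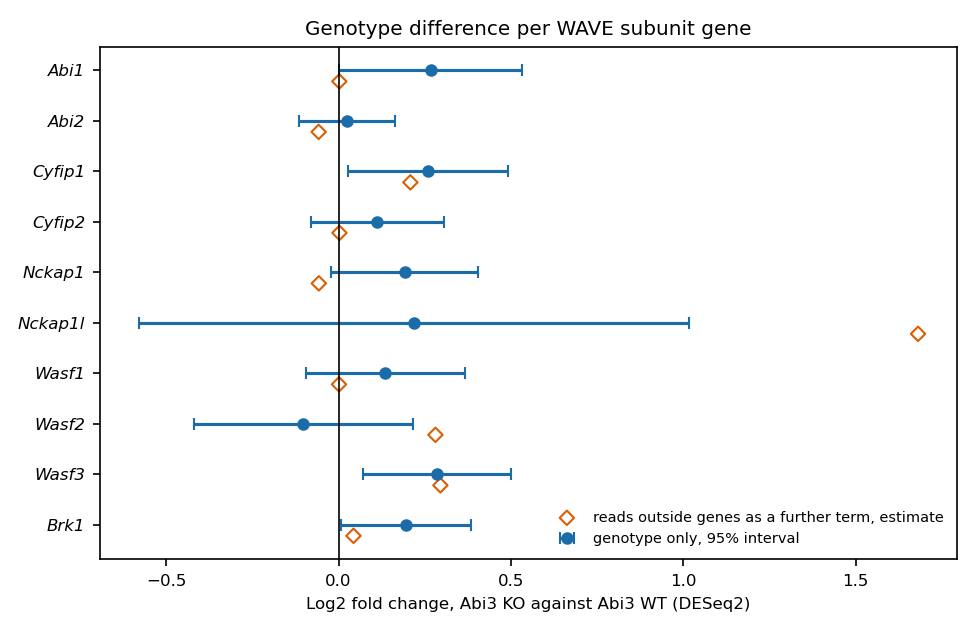
Log2 fold change of each WAVE subunit gene in Abi3 KO against Abi3 WT cortex from DESeq2 (x axis), 1 row per gene. Filled circles with 95% intervals come from the fit with genotype only and run from -0.10 for Wasf2 to 0.29 for Wasf3; open diamonds are the estimates with reads outside genes as a further term, where the median is 0.02 and Nckap1l lies at 1.68.

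The members differed more in level than between genotypes. A 3′ library samples transcripts next to their poly(A) tails, so normalized counts were compared between genes without division by length. Over the 11 animals the mean normalized count was 1246 for Cyfip2, 1065 for Abi2 and 782 for Nckap1, then 349.6 for Brk1, 284 for Wasf1, 229.8 for Cyfip1, 207 for Abi1, 203 for Wasf3, 112 for Wasf2 and 31.8 for Nckap1l. Each of the first 3 genes exceeded the next in the order in all 11 animals, although the ranges of Cyfip2 and Abi2, and of Abi2 and Nckap1, overlapped between animals. Ranges did not overlap between Nckap1 and Brk1, Wasf3 and Wasf2, or Wasf2 and Nckap1l. Cyfip1, Abi1 and Wasf3 were not separable in order, since Cyfip1 exceeded Abi1 in 8 and Abi1 exceeded Wasf3 in 7 of the 11 animals.

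**Figure D2:**
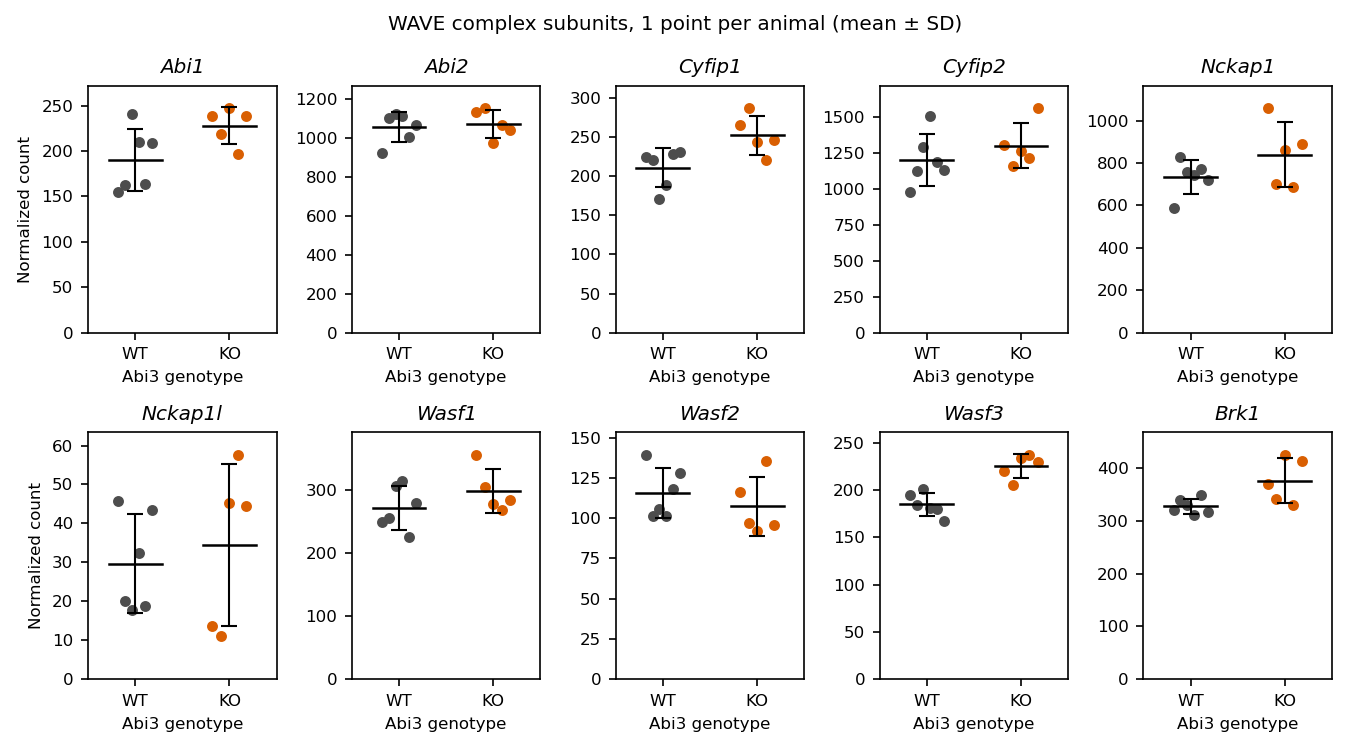
DESeq2 normalized counts of the 10 WAVE subunit genes (y axis from 0, scale differs by gene) in Abi3 WT (grey, n = 6) and Abi3 KO (orange, n = 5) cortices, 1 point per animal, with mean and SD. The genotypes separate without overlap for Wasf3 only, where Abi3 WT animals lie at 167 to 201 and Abi3 KO animals at 205 to 237.

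At the ABI, CYFIP and NCKAP positions the same paralogue held most of the reads in both genotypes. Abi2 made up 84.8% ± 1.75 (SD, n = 6) of the reads of Abi1 and Abi2 in Abi3 WT and 82.4% ± 1.93 (SD, n = 5) in Abi3 KO cortices. Cyfip2 made up 84.8% ± 3.04 (SD, n = 6) and 83.6% ± 2.30 (SD, n = 5) of the CYFIP reads, and Nckap1 96.0% ± 2.08 (SD, n = 6) and 95.9% ± 2.69 (SD, n = 5) of the NCKAP reads. The WASF position was the most evenly divided. Wasf1, the WASF gene best known from neurons, held 47.4% ± 3.94 (SD, n = 6) in Abi3 WT and 47.3% ± 3.77 (SD, n = 5) in Abi3 KO cortices, Wasf3 32.3% ± 2.16 (SD, n = 6) and 35.8% ± 2.91 (SD, n = 5), and Wasf2, which most cell types express, 20.2% ± 2.99 (SD, n = 6) and 17.0% ± 2.40 (SD, n = 5). With Abi3 included, Abi3 accounted for 1.56% ± 1.01 (SD, n = 6) of the ABI reads in Abi3 WT cortex, between 0.615% and 3.37% in single animals, so its loss took away a small part of the ABI transcripts of the tissue as a whole. Shares in bulk tissue are averages over cell types and do not give the share within microglia.

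**Figure D3:**
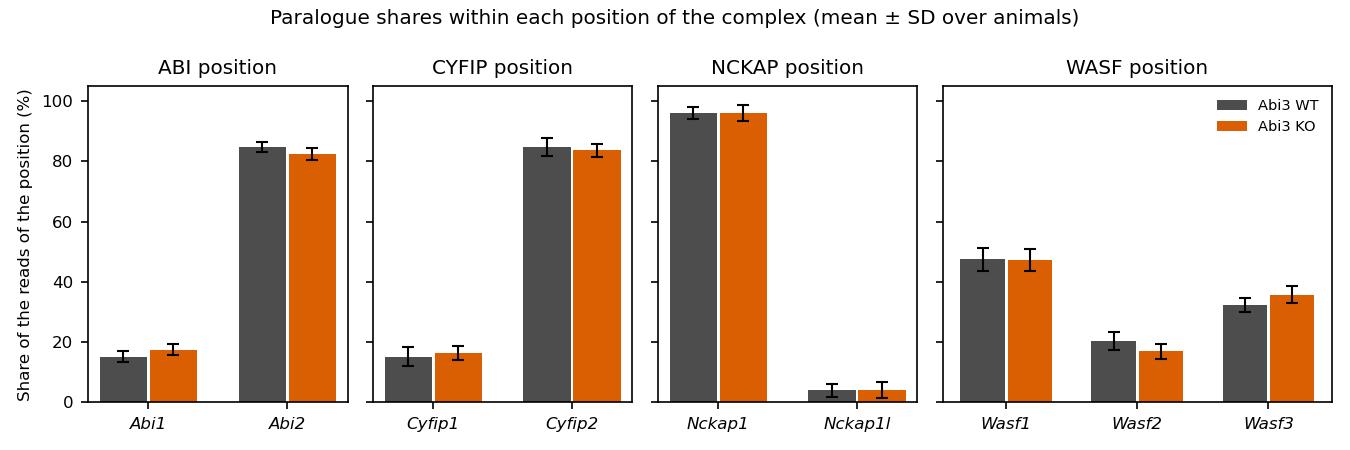
Share of the normalized reads of a subunit position held by each paralogue (y axis, percent, from 0) in Abi3 WT (grey, n = 6) and Abi3 KO (orange, n = 5) cortices; bars are means and error bars SD over animals. Abi2, Cyfip2 and Nckap1 hold more than 80% of their position in both genotypes, and the WASF position is split between 3 genes.

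At the CYFIP position, which binds active Rac1 and, outside the WAVE complex, pairs with the translational repressor FMRP, neither gene passed the test, and the ratio of Cyfip1 to Cyfip2 did not separate the genotypes either (exact permutation p = 0.47, adjusted 0.564). Cyfip1 (chromosome 7, 55491479 to 55582381, plus strand) had normalized counts with a lowest, median and highest of 172, 223 and 231 in Abi3 WT animals and of 265, 287, 244, 220.2 and 246 in the Abi3 KO animals. The 4 highest of these Abi3 KO values exceeded every Abi3 WT value, and the fifth lay within the Abi3 WT range. The means were 211 ± 24.8 (SD, n = 6) and 252 ± 25.1 (SD, n = 5), a log2 fold change of 0.26 (SE 0.119, 95% interval 0.03 to 0.49; DESeq2 adjusted p = 0.349). Cyfip2 (chromosome 11, 46084550 to 46203686, minus strand), the main cortical form, had a lowest, median and highest of 976, 1158 and 1502 in Abi3 WT animals and values of 1301, 1158, 1265, 1214 and 1558 in Abi3 KO animals. The ranges overlapped through most of their length. Its log2 fold change was 0.11 (SE 0.0979, interval -0.08 to 0.30; DESeq2 adjusted p = 0.698). The estimate was 0.04 without Abi3 KO replicate 5, 0.06 without Abi3 WT replicate 1 and 0.19 without Abi3 WT replicate 4.

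At the NCKAP position, the scaffold that runs alongside CYFIP, Nckap1 (chromosome 2, 80330803 to 80411884, minus strand) had a lowest, median and highest of 586, 751 and 826 normalized counts in Abi3 WT animals. Its values in Abi3 KO animals were 1057, 703, 859, 688 and 891. Of these, 3 lay above and 2 within the Abi3 WT range, and the spread was wider in Abi3 KO (coefficient of variation 18.1%) than in Abi3 WT (11.1%). The log2 fold change was 0.19 (SE 0.108, interval -0.02 to 0.40; DESeq2 adjusted p = 0.492), and it was 0.09 without Abi3 KO replicate 1.

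Nckap1l, also known as Hem1 and the blood-cell form of the scaffold (chromosome 15, 103362221 to 103407240, plus strand), was the least abundant member, with 11 to 51 raw reads per library. Its normalized counts had a lowest, median and highest of 17.8, 26.2 and 45.7 in Abi3 WT animals and were 13.6, 11.1, 45.4, 57.6 and 44.4 in Abi3 KO animals. The Abi3 KO values fell on both sides of the Abi3 WT values, with 2 below the lowest, 1 above the highest and 2 inside the range. The log2 fold change was 0.22 (SE 0.407). Its interval of -0.58 to 1.02 corresponds to 0.669-fold to 2.02-fold, and a change anywhere in that span is compatible with these counts. The coefficient of variation was 42.7% in Abi3 WT and 60.5% in Abi3 KO. The estimate was -0.05 without Abi3 KO replicate 4 and 0.45 without Abi3 KO replicate 2.

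Because Nckap1l marks microglia, it was set beside 15 microglia markers. Of these, 13 had a fitted log2 fold change above 0, against 49.5% of all genes tested. Ctss, which encodes the lysosomal protease cathepsin S, was the only marker of the 15 that passed the test, which 0.482% of all genes did (990.4 ± 172 (SD, n = 6) normalized counts in Abi3 WT and 1344 ± 168 (SD, n = 5) in Abi3 KO, log2 fold change 0.44, DESeq2 adjusted p = 0.00782). The sum of the 15 markers was 3462 to 4835 normalized counts in Abi3 WT and 3996 to 5649 in Abi3 KO animals. Abi3 KO replicate 4 had both the highest sum, 5649, and the highest Nckap1l, 57.6. Abi3 KO replicate 2 had a sum of 4598 with the lowest Nckap1l, 11.1, and Abi3 WT replicate 6 had 3589 with 43.4, so the marker sum did not order the animals by Nckap1l. In bulk tissue a change in the number of microglia and a change in RNA per cell cannot be told apart.

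**Figure D4:**
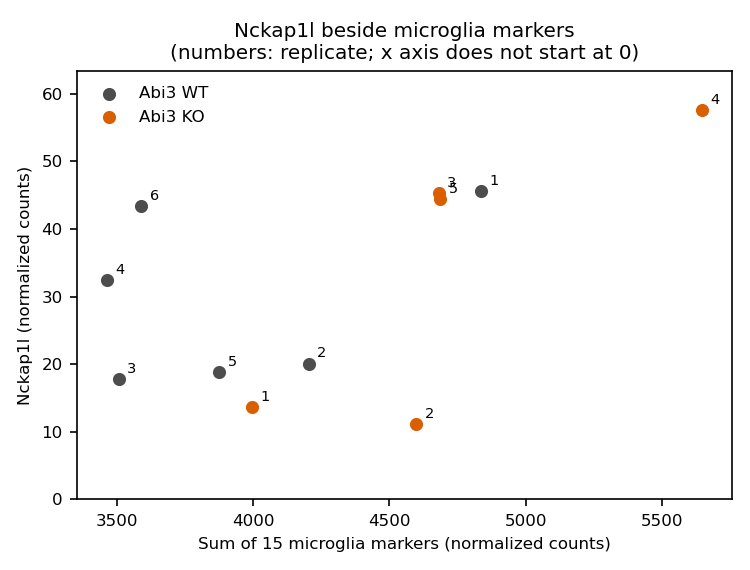
Nckap1l (y axis, normalized counts, from 0) against the sum of 15 microglia markers (x axis, normalized counts, not from 0) in Abi3 WT (grey) and Abi3 KO (orange) cortices, 1 point per animal with its replicate number. Abi3 KO replicate 4 is highest on both axes, and Abi3 KO replicates 1 and 2 have the lowest Nckap1l at sums of 3996 and 4598.

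At the ABI position, Abi1 and Abi2 remain once Abi3 is gone. Abi1 (chromosome 2, 22830083 to 22930341, minus strand), an adaptor that also ties the complex to Abl kinases, had a lowest, median and highest of 155, 186 and 241 normalized counts in Abi3 WT animals and values of 239, 219, 247, 197 and 239 in Abi3 KO animals. The Abi3 WT animals spread over the whole of that span, and a single Abi3 KO animal lay above it, although all 5 were above the Abi3 WT mean. The means were 190.0 ± 34.4 (SD, n = 6) and 228 ± 20.5 (SD, n = 5), a log2 fold change of 0.27 (SE 0.135, interval 0.0025 to 0.53; DESeq2 adjusted p = 0.421). Abi2 (chromosome 1, 60448647 to 60520827, plus strand), the predominant form, had the estimate nearest 0 of the 10 genes in the fit with genotype only. Its values had a lowest, median and highest of 925, 1086 and 1123 in Abi3 WT animals and were 1133, 1153, 976, 1071 and 1041 in Abi3 KO animals, with a log2 fold change of 0.02 (SE 0.0713; DESeq2 adjusted p = 0.939). The interval of -0.12 to 0.16 leaves room for a change of either sign. The sign of the Abi2 estimate turned in 4 alternatives, among them size factors from total reads, where it was -0.01.

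Brk1 (chromosome 6, 113581600 to 113593912, plus strand) encodes the smallest subunit and has no paralogue in the complex. Its normalized counts had a lowest, median and highest of 310.1, 326 and 349 in Abi3 WT animals and were 369, 341, 425, 329.8 and 414 in Abi3 KO animals. The Abi3 WT animals lay within a narrow band (coefficient of variation 4.42%), 3 Abi3 KO animals lay above it and 2 within it. The means were 328 ± 14.5 (SD, n = 6) and 376 ± 42.5 (SD, n = 5), a log2 fold change of 0.19 (SE 0.096, interval 0.0066 to 0.38; DESeq2 adjusted p = 0.393).

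The WASF position, whose proteins carry the tail that activates Arp2/3, held both extremes of the list. Wasf3 (chromosome 5, 146320287 to 146410443, plus strand) had a lowest, median and highest of 167, 183 and 201 normalized counts in Abi3 WT animals and values of 220.2, 205, 234, 237 and 229.9 in Abi3 KO animals. Every Abi3 KO animal was above every Abi3 WT animal, the gap between 201 and 205 being small beside the spread within either group. The means were 185 ± 11.9 (SD, n = 6) and 225 ± 13.0 (SD, n = 5), a log2 fold change of 0.29 (SE 0.11, interval 0.07 to 0.50; DESeq2 adjusted p = 0.205). The unadjusted p stayed under 0.05 in 21 of 23 alternatives. In DESeq2 it was 0.157 with reads outside genes as a covariate and 0.081 with the replicate block. The alternatives were not all separate checks. Those that changed only the filtering after the fit kept the same unadjusted p. Replicates 1 to 5 without the block gave the same fit as leaving out Abi3 WT replicate 6. The adjusted p was at or above 0.131 in every alternative that gave one, and no alternative carried Wasf3 past the threshold. The log2 fold change ranged from 0.25 to 0.32 over these alternatives.

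Wasf1 (chromosome 10, 40759466 to 40814569, plus strand) had a lowest, median and highest of 225, 268 and 315 normalized counts in Abi3 WT animals and values of 357, 305, 278, 269 and 284 in Abi3 KO animals. All but the highest Abi3 KO value lay within the Abi3 WT range, and the log2 fold change was 0.14 (SE 0.117, interval -0.09 to 0.37; DESeq2 adjusted p = 0.695). It was 0.06 without Abi3 KO replicate 1 and 0.09 without Abi3 WT replicate 5. Wasf2 (chromosome 4, 132844495 to 132927067, plus strand), the form that supports lamellipodia in many cell types, was the member with an estimate below 0. Its lowest, median and highest were 101, 112 and 139 in Abi3 WT animals and its values were 116, 97.0, 91.9, 136 and 95.6 in Abi3 KO animals. Of these, 3 lay below the Abi3 WT range and 2 within it, with a log2 fold change of -0.10 (SE 0.162, interval -0.42 to 0.22; DESeq2 adjusted p = 0.866). Leaving out single animals gave -0.20 (without Abi3 KO replicate 4) to -0.04 (without Abi3 WT replicate 1).

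Summed over paralogues, every position had a slightly higher mean in Abi3 KO cortex, and no test was made of the sums. In normalized counts, the ABI genes together, Abi3 left out, had 1247 ± 104 (SD, n = 6) in Abi3 WT and 1303 ± 66.5 (SD, n = 5) in Abi3 KO, and the CYFIP genes 1412 ± 162 (SD, n = 6) and 1552 ± 151 (SD, n = 5). The NCKAP genes had 764 ± 71.3 (SD, n = 6) and 874 ± 146 (SD, n = 5), and the WASF genes 573 ± 34.4 (SD, n = 6) and 631 ± 37.8 (SD, n = 5). The log2 ratio of the means was 0.06 for ABI, 0.14 for CYFIP, 0.19 for NCKAP, 0.14 for WASF and 0.20 for BRK1. The SD between animals of a genotype on the same log2 scale was 0.10, 0.15, 0.19, 0.09 and 0.12. The difference was larger than the spread for WASF and BRK1 and about equal to it for NCKAP. At every position the difference moved with single animals. The log2 ratio was 0.03 for ABI without Abi3 WT replicate 1 and 0.08 for CYFIP without Abi3 KO replicate 5. Without Abi3 KO replicate 1 it was 0.11 for NCKAP and 0.10 for WASF, and without Abi3 KO replicate 3 it was 0.15 for BRK1.

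To ask whether paralogues at a position shifted against each other, their log2 ratio was taken within each animal, which removes the library scaling, and compared by exact permutation of the genotypes over the animals. None of the 6 ratios passed once the p-values were adjusted over the 6 pairs. The lowest p was for Wasf2 over Wasf3. This log2 ratio lay between -0.92 and -0.38 in Abi3 WT animals and was -0.91, -1.07, -1.34, -0.80 and -1.26 in Abi3 KO animals. The Abi3 KO values were below the Abi3 WT mean of -0.68 in 5 of 5 animals and below the lowest Abi3 WT value in 3. The difference of -0.40 (SE 0.135) had an exact permutation p of 0.0281, two-sided, and an adjusted p of 0.169. The ratios and the sums were not computed with reads outside genes as a covariate. Wasf2 thus stood at 0.624 of the Wasf3 level in Abi3 WT and 0.474 in Abi3 KO cortex, as geometric means.

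For Abi1 over Abi2, the pair left at the position of the deleted gene, the log2 ratio was -2.49 ± 0.195 (SD, n = 6) in Abi3 WT and -2.23 ± 0.191 (SD, n = 5) in Abi3 KO cortex, above the Abi3 WT mean in 5 of 5 animals. The difference was 0.25 (SE 0.117; exact permutation p = 0.0693, adjusted 0.208). The other differences were 0.25 (SE 0.181) for Wasf1 over Wasf2, -0.15 (SE 0.128) for Wasf1 over Wasf3, 0.14 (SE 0.181) for Cyfip1 over Cyfip2 and 0.14 (SE 0.59) for Nckap1 over Nckap1l, with adjusted exact permutation p from 0.38 to 0.801. The Nckap1 ratio ranged from 3.56 to 6.18 in Abi3 KO animals alone, and its SE was the largest of the 6.

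**Figure D5:**
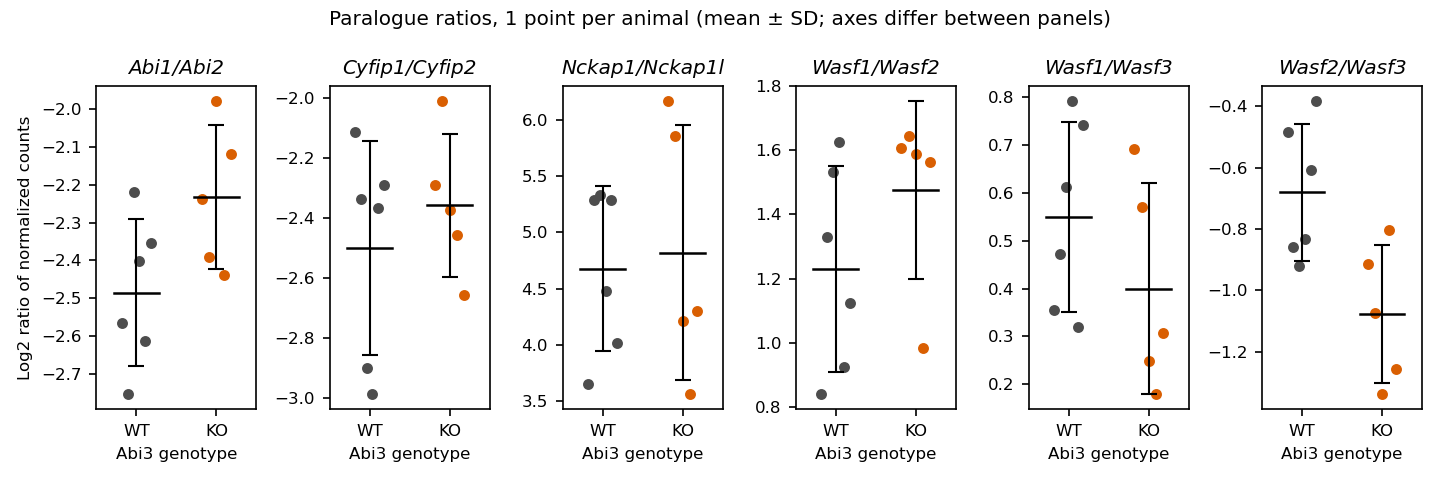
Log2 ratio of normalized counts of 6 paralogue pairs (y axes, which differ between panels and do not start at 0) in Abi3 WT (grey, n = 6) and Abi3 KO (orange, n = 5) cortices, 1 point per animal, with mean and SD. Wasf2/Wasf3 has a mean of -0.68 in Abi3 WT and -1.08 in Abi3 KO, and the groups overlap in every panel.

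Genes upstream and downstream of the complex were read from fixed lists. Over all genes tested, 49.5% had an estimate above 0, 8.58% an unadjusted p under 0.05 and 1.04% no overlap between genotypes. Of 19 genes of Rac and adaptor signals upstream of WAVE, none passed the test, 3 had an unadjusted p under 0.05, 10 had an estimate above 0 and the median log2 fold change was 0.0025. Cdc42, a small GTPase and the gene of this list with the lowest p, had 590.2 ± 70.2 (SD, n = 6) normalized counts in Abi3 WT and 716 ± 53.7 (SD, n = 5) in Abi3 KO cortex, a log2 fold change of 0.28 (SE 0.0898, DESeq2 adjusted p = 0.0956). Abl1, a tyrosine kinase that binds ABI proteins, had 84.8 ± 23.8 (SD, n = 6) and 54.6 ± 6.16 (SD, n = 5), a log2 fold change of -0.63 (SE 0.232, DESeq2 adjusted p = 0.171). Calls in this list turned on single animals. Cdc42 passed without Abi3 WT replicate 3 (adjusted p = 0.00568) or without Abi3 KO replicate 3 (0.0499), and Abl1 passed without Abi3 WT replicate 5 (0.0202). Nck1, the SH2/SH3 adaptor, had no overlap between genotypes with 52.9 to 70.7 normalized counts in Abi3 WT and 71.2 to 99.0 in Abi3 KO, and a log2 fold change of 0.38 (SE 0.184, DESeq2 adjusted p = 0.372). Rac1 itself, whose protein switches the complex on, had a log2 fold change of 0.14 (SE 0.0859, DESeq2 adjusted p = 0.524); it falls outside the rule for naming and was chosen after its values were seen.

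The Arp2/3 complex, which the released WASF tail activates, had 10 genes, of which none passed. An estimate above 0 was found for 9, against 49.5% of all genes tested and 58.1% of those with a mean of at least 100. An unadjusted p under 0.05 was found for 3, against 8.58% of all genes, and 1.04% of all genes had no overlap between genotypes. The median log2 fold change was 0.12. Arpc3 had 86.2 to 132 normalized counts in Abi3 WT and 134 to 179.8 in Abi3 KO animals without overlap, a log2 fold change of 0.46 (SE 0.156, DESeq2 adjusted p = 0.117). Arpc1b, the paralogue of the ARPC1 subunit known from immune cells, ran from 52.9 to 110.03 in Abi3 WT and from 69.2 to 114 in Abi3 KO animals, a log2 fold change of 0.56 (SE 0.215, DESeq2 adjusted p = 0.206), while Arpc5 had a log2 fold change of 0.29 (SE 0.128, DESeq2 adjusted p = 0.313).

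Of 21 other activators and inhibitors of Arp2/3, none passed and the median was 0.06. An unadjusted p under 0.05 was found for 1, against 8.58% of all genes tested, and an estimate above 0 for 12, against 49.5%. The genes with the lowest p, Pick1, Whamm and Gmfg, all had estimates below 0. Pick1, which encodes a protein that binds Arp2/3 and membranes, had a log2 fold change of -0.48 (SE 0.229, DESeq2 adjusted p = 0.367). Whamm, an activator found on Golgi and tubular membranes, had a log2 fold change of -0.53 (SE 0.275) and was too low in count to receive an adjusted p, and Gmfg had 27 raw reads over all libraries. Of the 4 FMRP-related genes none passed, and Eif4e, the cap-binding protein that CYFIP1 contacts, had a log2 fold change of 0.28 (SE 0.134, DESeq2 adjusted p = 0.379), Fxr1 0.23 (SE 0.116, adjusted p = 0.43) and Fxr2 -0.17 (SE 0.127, adjusted p = 0.631). Actb, the main actin gene in these counts, had a normalized count of 6970.3 ± 312 (SD, n = 6) in Abi3 WT and 7334 ± 313 (SD, n = 5) in Abi3 KO cortex and a log2 fold change of 0.07 (SE 0.0487, DESeq2 adjusted p = 0.576), and Actg1, with 147 raw reads in all, had a log2 fold change of 0.14 (SE 0.452).

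For each member the 2 genes whose normalized log2 counts followed it most closely over the 11 animals were taken from about 7780 genes with a mean of at least 50. These are the highest of many correlations over few animals that share library make-up and genotype, and they are given as a description only. Abi1 went with Wwp1 (Pearson r = 0.93) and Tspyl4 (r = 0.89), and Abi2 with Sin3b (r = 0.89) and Dync2i1 (r = 0.88). Cyfip1 went with Capzb, a subunit of the actin capping protein (r = 0.93), and Sesn1 (r = 0.91), whereas Cyfip2 went with Ndrg4 and Sncb, which are abundant in neurons (r = 0.92 for both). Nckap1 went with Actb (r = 0.93) and Gnao1 (r = 0.91), and Nckap1l with Gusb, a lysosomal enzyme (r = 0.89), and Xpnpep1 (r = 0.87). Wasf1 went with Dnajb6 (r = 0.93) and Vti1b (r = 0.92), Wasf2 with Dhdds (r = 0.87) and Rfng (r = 0.85), Wasf3 with Hspd1 (r = 0.91) and Rbbp4 (r = 0.90), and Brk1 with Nap1l4 (r = 0.92) and Pura (r = 0.90). Between members, r was highest for Abi1 and Wasf1 (0.76) and lowest for Abi2 and Nckap1l (-0.61). No 2 members shared a nearest gene.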

How the data were processed

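QuantSeq 3′ libraries were made from 50 ng of cortical RNA of each animal. The authors trimmed single-end reads, aligned them with STAR (version 2.7.3a) to GRCm39 and counted uniquely aligned reads per Ensembl gene, by strand, with htseq-count (HTSeq version 0.9.1). Deposited values are unnormalized read counts. No collapse of PCR copies is stated. The floor of 3 counts, which corresponds to 0.545 to 0.937 CPM, covers counting error only. The DESeq2 intervals also include the spread between animals. Names and positions came from a later GENCODE annotation of GRCm39, which held 52610 of 53700 identifiers. Entries that tally reads given to no gene stayed out of library sizes and tests.

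The genotype effect was fitted in DESeq2 1.42.0 under R 4.3.3, without further terms. Following the methods of the study, a gene needed 10 counts over all animals to be fitted and an average of 1.5 normalized counts to be listed. Here that second filter came before adjustment, with independent filtering aimed at 0.05; the order and the target are not given in the sources used here. SE and 95% intervals are of the fitted log2 fold change. Paralogue ratios used a pseudocount of 1. Alternatives were edgeR (version 4.0.16), limma voom (version 3.58.1), other scalings and filters, reads outside genes as a covariate, the replicate number as a block and leaving out each animal. The mean-count filter applied after adjustment and replicates 1 to 5 without the block were chosen after seeing the data. The fits were tested on simulated data.

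Named genes were the 10 members, Abi3, up to 3 genes with the lowest p of each pathway list, and the 2 genes most like each member. Ctss, the T cell markers and the haemoglobin genes were named from the cell type marker lists, outside this rule. Members and lists were chosen with earlier results of these data known. No copy of a library was found among the 11. The replicate numbers, taken from the sample titles, mark different animals.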

Additional observations from a re-analysis of the deposited data

Results flagged for a closer look

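The lowest and highest values of the measures, genes and ratios included, were compared with the rest of their group by Dixon's criterion. Of 42 groups examined 2 stood out, and chance gives about 2.1 (1 in 20). The log2 ratio of Wasf1 over Wasf2 was 0.983 in Abi3 KO replicate 4, far below the next value of 1.56 in that group. The same animal had the highest Wasf2 count of the Abi3 KO group, 136, and the lowest Wasf1 count, 269. Abi3 had a normalized count of 2.02 in Abi3 KO replicate 2 and 0 in the other Abi3 KO animals, which is 2 reads and under the floor of 3 counts.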

How the results depend on the processing

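The number of WAVE genes past the threshold was 0 under each of the 23 alternatives, edgeR and limma included, with 1 to 5 of the 10 at an unadjusted p under 0.05. No scaling moved the median of all genes by more than 0.1 on the log2 scale. With size factors from total reads the member median was 0.16 and that of all genes -0.04.

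Some signs turned, and the cause was not tested. The log2 fold change of Abi2 was -0.0141 with total-read factors, -0.0576 with reads outside genes as a covariate, -0.0091 without Abi3 WT replicate 1 and -0.0023 without Abi3 KO replicate 2, and leaving out single animals gave up to 0.0568. With the covariate, Nckap1 was at -0.057 and Wasf2 at 0.28. Nckap1l was at -0.0498 without Abi3 KO replicate 4 and up to 0.449 without another animal. The difference in Nckap1 over Nckap1l was -0.06 without Abi3 WT replicate 1, -0.20 without Abi3 KO replicate 1 and -0.12 without Abi3 KO replicate 2, and leaving out single animals gave -0.20 to 0.46. No other ratio difference and no position total changed sign in the 14 alternatives run for them, which did not include the covariate, edgeR, limma or total-read factors. The count in the list of Rac and adaptor signals was 0 to 1 when single animals were left out.

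Genes past the threshold in the whole table numbered 37 with edgeR, 20 with limma, 54 with total-read factors (17 higher and 37 lower, against 55 and 30) and 3 with the covariate, 95 with the mean-count filter applied after adjustment in place of 85, and 45 to 120 when single animals were left out. Without Abi3 KO replicate 2 there were 45, without Abi3 KO replicate 5 there were 47, and without Abi3 WT replicate 6 there were 54.

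The replicate numbers did not pair the animals: deviations from the group means correlated at 0.04 on average between animals of the same number. With the replicate block, 35 genes passed against 54 for the same 10 animals without it, and 0 WAVE genes. The block gave a log2 fold change of 0.26 for Wasf3 (p = 0.081 in DESeq2), and a difference of -0.34 in Wasf2 over Wasf3 (exact sign-flip p = 0.125, where 5 pairs cannot go below 0.0625). Of the 5 numbered pairs, 2 libraries correlated best with their own number.

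Counting error is large for Nckap1l and Abi3, with at most 51 and 38 reads per library.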

Other observations

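Cell type marker lists other than those of neurons and microglia gave the following values. All 7 oligodendrocyte markers had a log2 fold change above 0 and none passed the test, with sums of 7841 to 10752 normalized counts in Abi3 WT and 8628 to 11919 in Abi3 KO animals. Of the 8 astrocyte markers 2 and of the 6 endothelial markers 1 had an estimate above 0, and none passed. The blood and T cell markers, nearly all of whose reads came from Hba-a1 and Hbb-bs, added up to 23.0 normalized counts in Abi3 WT replicate 3 and to 146 to 270.1 in the other 5 Abi3 WT animals, and to 305 in Abi3 KO replicate 5 and 7.91 to 36.4 in the other 4 Abi3 KO animals. The ranges of the genotypes overlapped, and neither Hba-a1 (DESeq2 unadjusted p = 0.179) nor Hbb-bs (DESeq2 adjusted p = 0.737) passed the test. Their part in the values of the WAVE genes was not tested.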
